A study of Homo sapiens with 9 samples.

Results

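Actin cytoskeleton mRNAs were followed in RNA that co-precipitated with 2 axon guidance receptors. The 53 genes were listed by name and comprise 2 cytoplasmic actins, 9 subunits of the Arp2/3 complex, 9 genes of the WAVE complex and N-WASP, 3 formins, 3 Ena/VASP proteins, 4 monomer-binding proteins, 3 capping protein subunits, 5 genes for ADF/cofilin proteins and LIM kinases, 6 tropomyosins and calponins, 4 genes for cross-linkers and cortactin, and 5 genes of non-muscle myosin II. All 53 have a row among the 42785 genes of the count files. The libraries were made from SH-SY5Y, a human neuroblastoma cell line, grown in medium with serum. They form 3 groups of 3: RNA from a pulldown with a mouse antibody to DCC (DCC-IP), RNA from a pulldown with a rabbit antibody to Nrp1 (Nrp1-IP), and RNA of the lysate itself (Input). The lysate had been cleared of nuclei. The pulldowns therefore differ in antibody species as well as in receptor, and no library of a control antibody was analysed here, so RNA held by the beads or by antibody in general was not subtracted. On a gel, the study saw RNA come down with both receptors and not with control IgG. That gel gives no value for a single gene. The labels do not say whether replicates were separate cultures. The study's methods describe its experiments in general as done in independent biological replicates, without naming these libraries. Where replicates were not separate cultures, the p-values measure only the spread between libraries, which may then be technical.

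DCC is a receptor of Netrin-1 and Nrp1 is part of the receptor of Sema3A. Both cues steer axonal growth cones, the motile tips in which actin filaments are built at the leading edge and pulled back and dismantled behind it. The Arp2/3 complex, switched on by the WAVE complex and N-WASP, starts branched filaments, while formins and Ena/VASP proteins lengthen unbranched ones. Profilins and thymosins hold actin monomers, capping protein stops growth at filament ends, and cofilins sever old filaments. β-actin mRNA is the classical example of an mRNA carried into growth cones and translated there. The comparison asks which of these mRNAs were taken along with each receptor, relative to the other receptor and to the lysate.

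The libraries held between 8838296 and 11055895 reads counted on genes, of which 3 counts correspond to 0.207 to 0.387 CPM (gene counts scaled to a common library size by TMM), and a value of 3 counts or fewer was read as not detectable at this depth. Such limits cover counting error only, since the cDNA had been amplified by PCR. MAP1B alone took 40.3% to 52.1% of the gene counts of DCC-IP, against 1.58% to 2.44% in Nrp1-IP and 1.87% to 2.25% in Input. The number of genes with at least 1 count ranged from 6652 in DCC-IP replicate 1 to 12240 in Nrp1-IP replicate 3. Of 14 sympathetic neuroblast markers, 3 were above the floor in every library and 1, TH, was at 0 in all 9. Their summed level, most of it ISL1, was 1330 to 4120 CPM in DCC-IP, 1070 to 1400 in Nrp1-IP and 322 to 543 in Input. Of the 6 epithelial markers 4 were at 0 throughout, as were 6 of the 7 blood markers and 4 of 10 mesenchymal ones (COL1A2, COL3A1, ACTA2 and DES). The summed mesenchymal level was 26.0 to 35.9 CPM in DCC-IP, 76.6 to 97.6 in Nrp1-IP and 34.6 to 69.5 in Input, most of it MYH11, and its part in the results was not tested. DCC mRNA was at 0 in all 9 libraries, and NRP1 mRNA had 198, 320 and 234 counts in Input.

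Most of the actin genes were thinly covered, and a few carried almost everything. Of the 53 genes, 20 were above the floor in all 9 libraries, 17 in 5 to 8, 15 in 1 to 4, and 1 (TPM2, a tropomyosin) in none. A total of 31 genes were at 0 in at least 1 library. The number at 0 was 21, 19 and 7 in DCC-IP replicates 1 to 3, 18, 13 and 4 for Nrp1-IP, and 13, 2 and 1 for Input, so that the libraries with the most zeros were replicates 1 of each group. In bulk libraries of this kind, fewer cells with an mRNA and fewer copies per cell cannot be told apart.

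**Figure D1:**
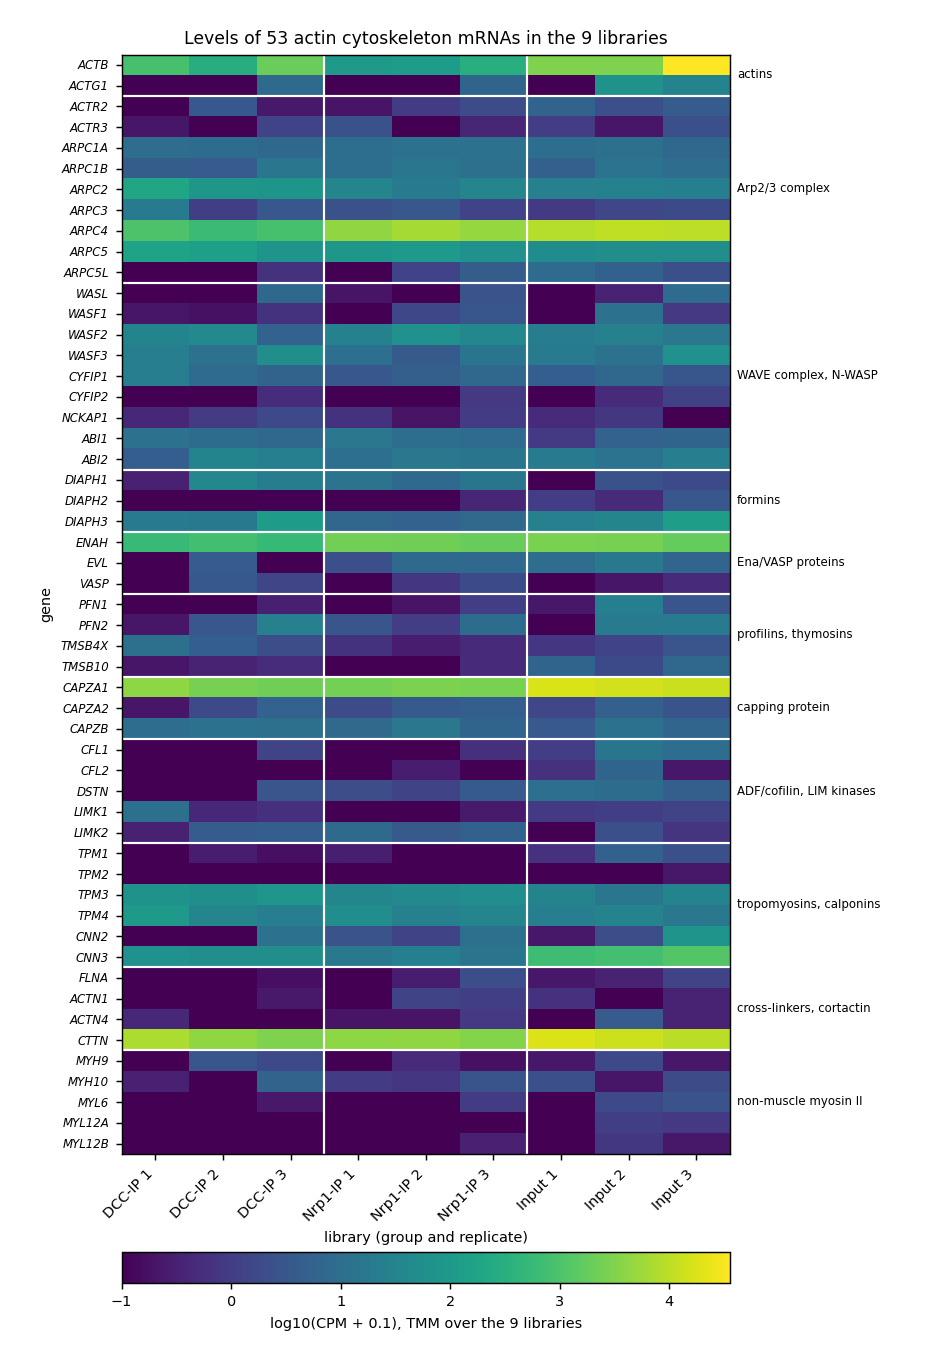
Level of each of the 53 genes (rows, ordered by role) in each library (columns), as log10 of CPM plus 0.1, on a colour scale from dark purple (not counted) to yellow. ACTB, ARPC4, ENAH, CAPZA1 and CTTN stand out in every library, while most cofilin, cross-linker and myosin genes are near 0 in several.

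5 genes had at least 1000 counts in every library: ACTB, ARPC4, ENAH, CAPZA1 and CTTN. Together they held 92.8% to 98.1% of the counts of the 53 genes. The counts are reads and were not corrected for transcript length, so the order of genes within a library is not an order of transcript numbers. What can be compared is the make-up between groups. ARPC4 held 6.78% to 9.16% of the member counts in DCC-IP, 32.2% to 38.9% with Nrp1-IP and 14.2% to 23.2% with Input, so its share was smallest in DCC-IP and largest in Nrp1-IP. ENAH held 13.7% to 16.9% in Nrp1-IP, above its range of 3.76% to 8.36% in DCC-IP and 2.45% to 5.62% in Input. ACTB held 50.1% in Input replicate 3 and 5.95% in the Input library where it was lowest.

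**Figure D2:**
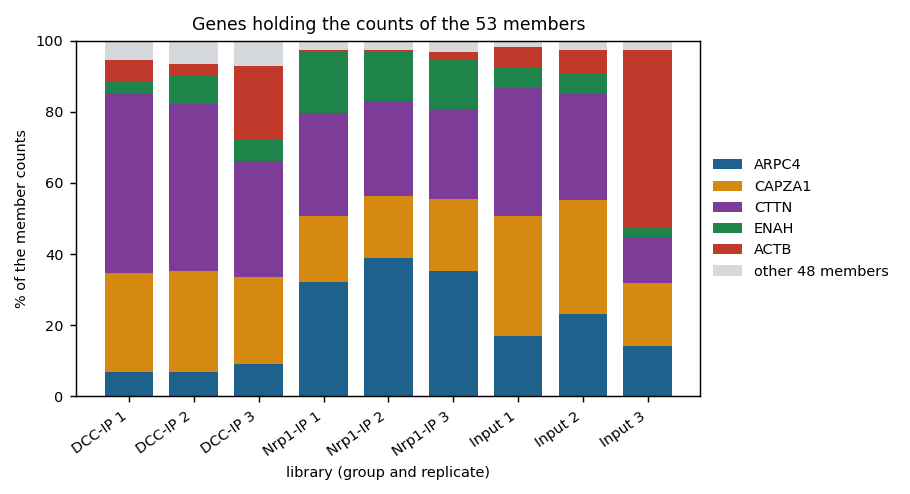
Share of the counts of the 53 genes (vertical axis, %) held by ARPC4, CAPZA1, CTTN, ENAH, ACTB and the other 48 genes in each library. ARPC4 and ENAH take a larger part of the bar in the 3 Nrp1-IP libraries than in the 3 DCC-IP libraries, and ACTB fills 50.1% of Input replicate 3.

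The 53 genes took 1.17%, 1.03% and 1.30% of all gene counts in DCC-IP, with 1.51%, 1.77% and 1.62% for Nrp1-IP and 3.73%, 3.83% and 6.44% for Input. The share was thus lower in every pulldown library than in every Input library. With MAP1B left out of the total the DCC-IP values were between 2.15% and 2.31%, above the Nrp1-IP values of 1.55% to 1.81%, while Input stood at 3.81% to 6.56%. The order of the pulldowns in this share therefore depended on MAP1B.

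The quasi-likelihood test of edgeR was run on the 6 libraries of each comparison, and a gene was called at a Benjamini-Hochberg adjusted p under 0.05 over all genes tested. Low counts kept 23 of the 53 genes out of the test between the pulldowns and 18 out of each test against Input. A gene with counts in 1 group alone passes that filter only because it differs, so the counts of calls below describe the genes that passed and not the whole list. In all, 40 genes were tested at least once and 27 in all 3 comparisons. The 13 never tested were ACTR3, WASL, CYFIP2, DIAPH2, CFL2, LIMK1, TPM1, TPM2, FLNA, ACTN1, ACTN4, MYL12A and MYL12B. A call was reached in at least 1 comparison by 8 genes. Since the same 3 Input libraries serve both comparisons with a pulldown, those comparisons are not independent.

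Between the receptors, ARPC4 and ENAH were higher in Nrp1-IP than in DCC-IP, and no actin gene was called lower. Thus 2 of the 30 genes tested were called higher, where 2.56% of all 6439 genes tested were. None was called lower by edgeR, where 1.09% of all genes were, although 6 genes were lower at an unadjusted p under 0.05 and DESeq2 called 5 lower. The median log2 fold change of the 30 genes was -0.68, and that of all genes tested was -0.27. Of all calls in this comparison 70.2% were higher, a share that was 80.9% with RLE size factors, 82.3% on library size only, 85.0% with MAP1B left out and 55.5% in DESeq2. Calls were much more frequent among abundant genes: of the 388 genes with at least 1000 counts in every library, 25.3% were called higher and 6.19% lower, and both called actin genes belong to that set of 388.

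DCC-IP differed from Input in 6 actin genes. ARPC2 was higher in the pulldown, and ARPC4, CAPZA1, CNN3, ENAH and CTTN were lower. That is 1 gene higher of 35 tested, where 1.46% of all 6223 genes were called higher, and 5 lower, where 3.52% were. With libraries of the same replicate number paired, 2 genes were higher (ARPC2 and DIAPH1) and 6 lower (ACTB in addition). The edgeR adjusted p in that paired fit was 0.0189 for ARPC2, 0.000519 for ARPC4 and 0.000705 for CAPZA1 and for CNN3. It was 0.00514 for ENAH and 0.00165 for CTTN. The fits without single libraries were not paired. The median log2 fold change was -0.02 for the 35 genes and 0.16 for all genes. Of the 388 abundant genes 34.5% were called lower, with a median log2 fold change of -1.30, and 4 of the 5 genes called lower here (ARPC4, CAPZA1, ENAH and CTTN) are among them. Higher calls made up 29.4% of all calls, 45.8% on library size only and 49.5% in DESeq2. With MAP1B left out, 0 genes were called higher and 2 lower (ARPC4 and CNN3), and the calls over all genes fell to 26 higher and 47 lower. The adjusted p was then 0.072 for ARPC2, 0.0542 for CAPZA1, 0.0735 for ENAH and 0.202 for CTTN. The ARPC2 and CTTN calls were also lost with RLE size factors (0.0837 and 0.101) and without the filter (0.0778 and 0.191), the ENAH call without the filter (0.0823), and the CTTN call in DESeq2 (0.0972). The calls of this comparison leaned on single libraries too: over all genes, leaving out DCC-IP replicate 1 left 0 higher and 0 lower, and leaving out DCC-IP replicate 2 left 1 higher and 0 lower.

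Nrp1-IP differed from Input in 5 actin genes, all lower: ACTB, DIAPH3, CAPZA1, CNN3 and CTTN. Of all 6501 genes tested 3.03% were called lower. No member of the 35 tested was called higher by edgeR, where 1.94% of all genes were. At an unadjusted p under 0.05 there were 2 higher (WASF2 and DIAPH1), and DESeq2 called 1 of them, DIAPH1. The median was -0.76 for the 35 genes and 0.06 for all genes. Among the 388 abundant genes 18.0% were called lower, and 3 of the 5 genes called lower here (ACTB, CAPZA1 and CTTN) belong to them. Higher calls were 39.0% of all calls, 24.3% with RLE size factors and 67.8% on library size only. Over all genes, 0 higher and 0 lower calls were left without Nrp1-IP replicate 1, and 0 higher and 7 lower without replicate 2 or without replicate 3 of that group.

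**Figure D3:**
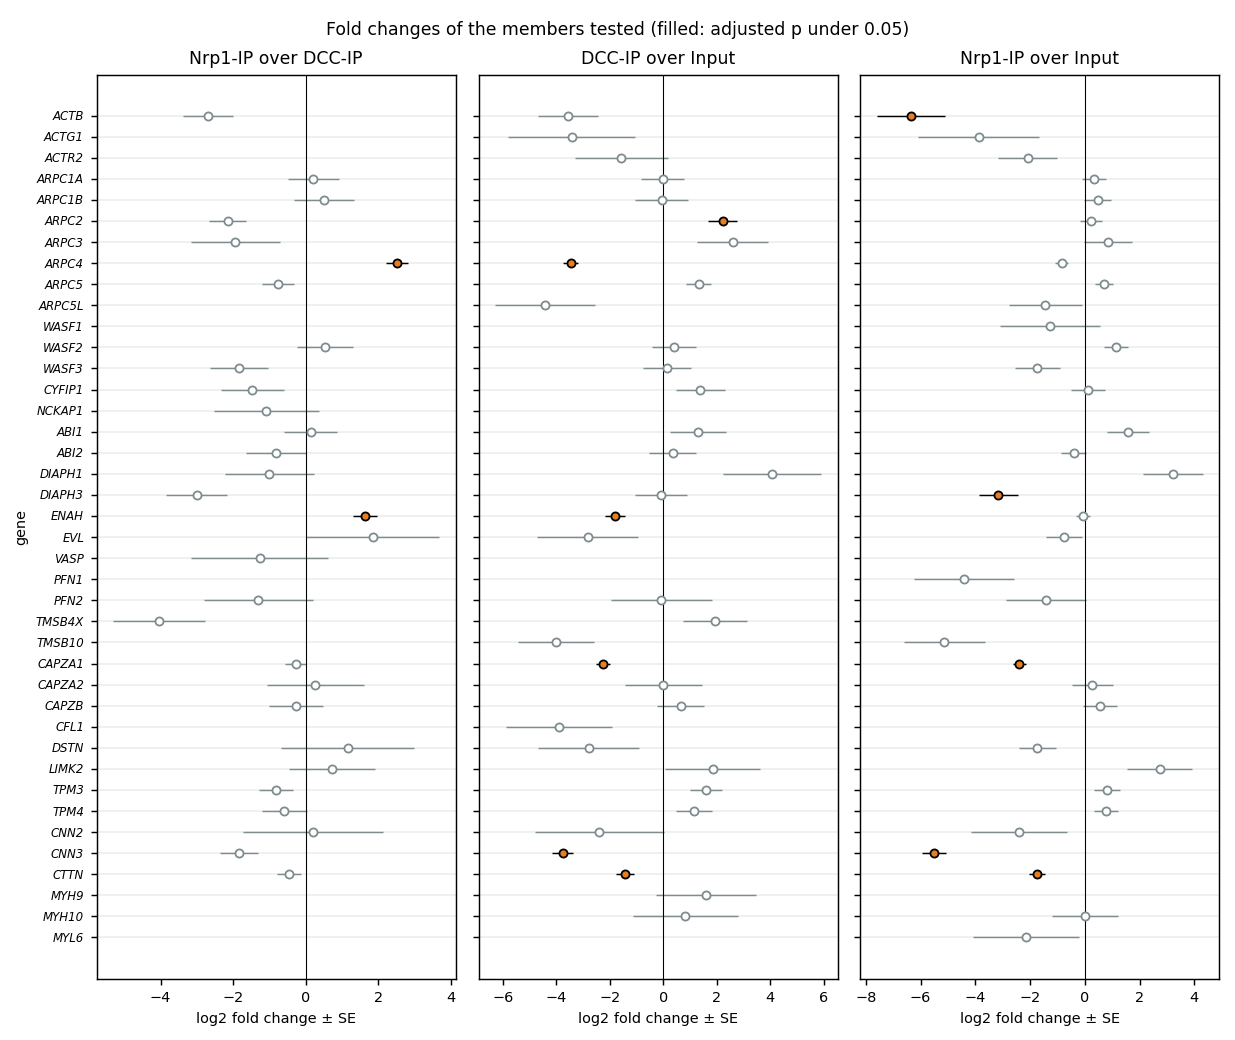
log2 fold change with its standard error (horizontal axis) for each member tested (rows, ordered by role) in the 3 comparisons, with filled points for an adjusted p under 0.05. ARPC4 and ENAH are the only filled points in the comparison of the receptors, and both lie to the right of 0.

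The Arp2/3 complex, the nucleator of branched filaments, held 1 of the 2 genes called between the receptors. ARPC4, which with ARPC2 forms the core of the complex, had 8911, 7720 and 12369 counts across DCC-IP libraries, 47105, 69194 and 62581 in those of Nrp1-IP, and 67880, 89568 and 80881 in those of Input. In CPM the groups did not overlap, with DCC-IP lowest and Input highest, while in counts Nrp1-IP replicate 2 was above Input replicate 1. Mean levels were 826.9 ± 196 CPM for DCC-IP, 5158 ± 1060 for Nrp1-IP and 9867 ± 996 for Input (SD, n = 3). The level in Nrp1-IP was 5.71-fold that in DCC-IP (log2 fold change 2.51, SE 0.30, edgeR adjusted p = 0.00255), and the call held without each of the 6 libraries, with log2 fold changes of 2.34 to 2.92. DCC-IP was 11.1-fold below Input (log2 fold change -3.47, SE 0.29, edgeR adjusted p = 0.00373). This call was lost without DCC-IP replicate 1 (adjusted p = 0.0766) or replicate 2 (adjusted p = 0.0975), at log2 fold changes of -3.52 and -2.97. Nrp1-IP was 1.81-fold below Input and did not pass the test (log2 fold change -0.85, SE 0.23, edgeR adjusted p = 0.0781). It passed with RLE size factors (-1.04, adjusted p = 0.0443), without the filter (-0.96, adjusted p = 0.0049), with at least 10 counts in every library (-0.88, adjusted p = 0.03), in DESeq2 (-1.04, adjusted p = 0.0137) and without Input replicate 3 (-0.98, adjusted p = 0.0495). The gene overlaps TADA3, which had at most 56 counts in any library, and the readthrough gene ARPC4-TTLL3, which was at 0.

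ARPC2, the partner of ARPC4 in the core, moved the other way. It had 1633, 1110 and 1111 counts in DCC-IP libraries and 358, 207 and 443 in Nrp1-IP libraries, against 202, 234 and 193 in Input libraries. Every DCC-IP library was above every other library, and Nrp1-IP and Input overlapped. The means were 116.8 ± 59.1, 28.6 ± 8.26 and 26.07 ± 1.82 CPM (SD, n = 3). ARPC2 was 4.65-fold higher in DCC-IP than in Input (log2 fold change 2.22, SE 0.53, edgeR adjusted p = 0.0491), a call that sat at the threshold and was lost without any 1 of the 6 libraries, at log2 fold changes of 1.89 to 2.86 and adjusted p of 0.0579 to 0.216. The lower level in Nrp1-IP than in DCC-IP missed the threshold (log2 fold change -2.15, SE 0.51, edgeR adjusted p = 0.0527). This difference was called in 3 of 8 other settings and in 1 of 6 fits without a library. The settings were DESeq2 (-2.04, adjusted p = 0.00591), at least 10 counts in every library (-1.86, edgeR adjusted p = 0.025) and the replicate block (-2.12, edgeR adjusted p = 0.029). Nrp1-IP and Input could not be told apart (log2 fold change 0.22, SE 0.40, edgeR adjusted p = 0.813).

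The other subunits gave no call in the main edgeR fit. ARPC5, whose mean was highest in DCC-IP, had 1479, 1726 and 1105 counts there, 910, 1090 and 855 with Nrp1-IP and 389, 469 and 449 with Input. Its log2 fold change over Input was 1.32 in DCC-IP (SE 0.48, edgeR adjusted p = 0.148) and 0.70 in Nrp1-IP (SE 0.34, edgeR adjusted p = 0.285). The DCC-IP value was called in 1 of 8 other settings, at least 10 counts in every library (1.58, edgeR adjusted p = 0.0392). ARPC1A and its paralog ARPC1B stayed within 60 to 160 and 37 to 222 counts, with log2 fold changes of 0.50 or less in size in all comparisons. ARPC3 ranged from 6 counts to 182, the latter in DCC-IP replicate 1. ARPC5L had 0, 0 and 8 counts in DCC-IP against 66, 43 and 17 in Input (log2 fold change -4.42, SE 1.88, edgeR adjusted p = 0.213). It was called in 1 of 7 other settings, DESeq2 (-4.82, adjusted p = 0.0227). ACTR2 and ACTR3, which encode the actin-related subunits Arp2 and Arp3, had at most 45 and 26 counts in any library.

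**Figure D4:**
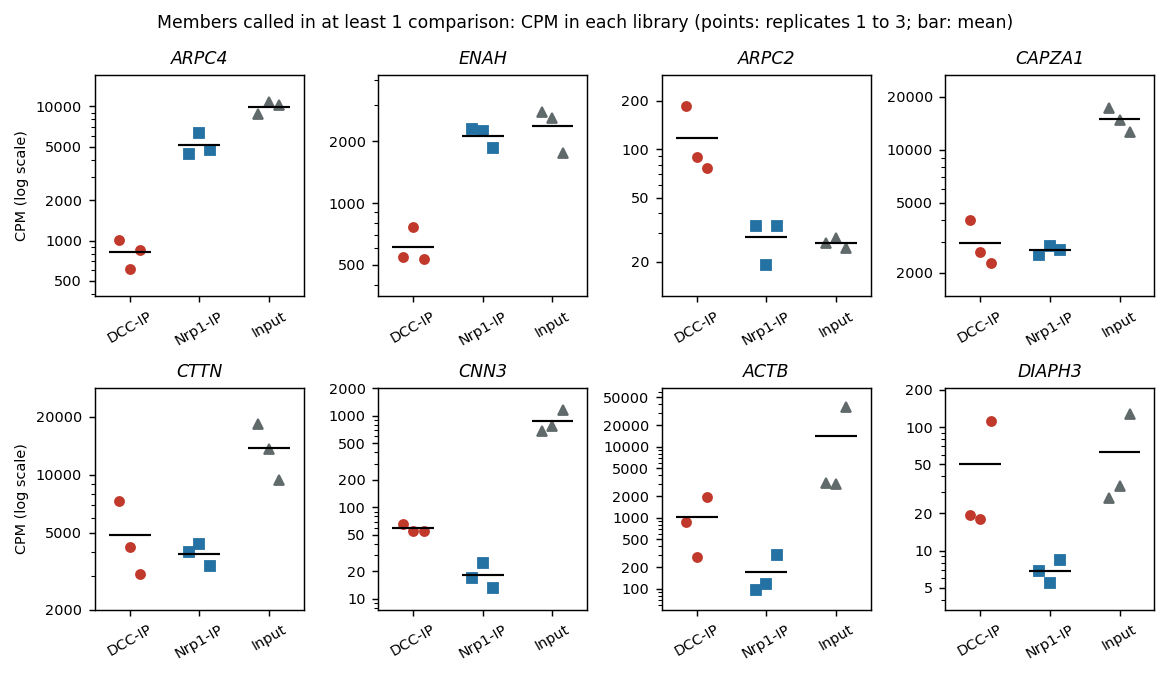
CPM on a log scale in each library for the 8 genes called in at least 1 comparison, with points for the 3 replicates of each group and a bar for the mean. DCC-IP is the low group for ARPC4 and ENAH and the high group for ARPC2, and both pulldowns lie below Input for CAPZA1, CTTN and CNN3.

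The ratio of 2 subunits within a library does not depend on how libraries are scaled. These ratios were chosen after the values were seen and carry no test. There were 5.46, 6.95 and 11.1 ARPC4 counts per ARPC2 count in DCC-IP, with 132, 334 and 141 for Nrp1-IP and 336, 383 and 419 for Input. The DCC-IP libraries were far below all others, and the Nrp1-IP ratios were all below those of Input. ARPC4 per ARPC5 count gave the same order without overlap, at 6.03, 4.47 and 11.2 in DCC-IP, 51.8, 63.5 and 73.2 with Nrp1-IP and 174, 191 and 180 with Input.

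**Figure D5:**
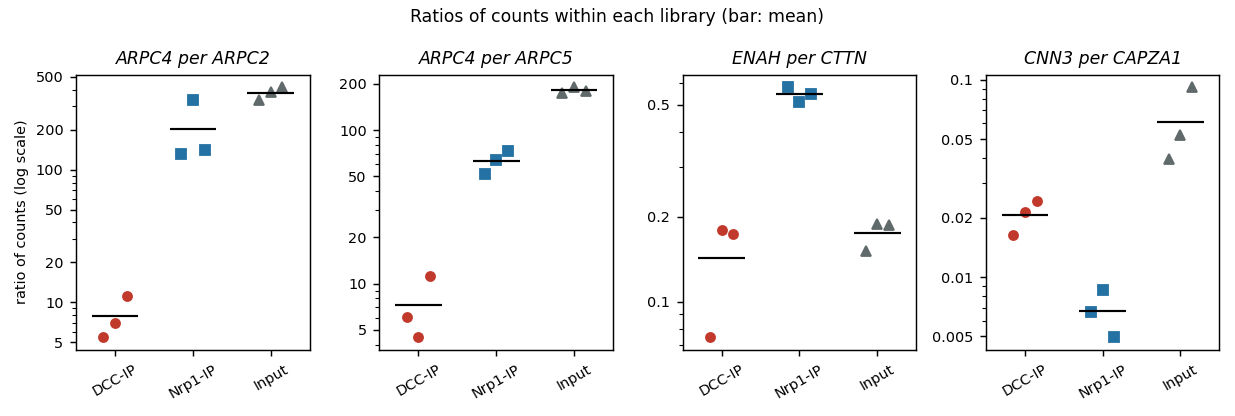
Ratio of counts of 2 genes in the same library (vertical axis, log scale) for ARPC4 per ARPC2, ARPC4 per ARPC5, ENAH per CTTN and CNN3 per CAPZA1, with a point per library and a bar for the group mean. DCC-IP is the low group in the first 2 panels, and Nrp1-IP is the high group for ENAH per CTTN and the low group for CNN3 per CAPZA1.

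The Ena/VASP family, which lengthens filaments at the leading edge and at filopodial tips, was represented mainly by ENAH. It had counts of 4831, 9518 and 7699 with DCC-IP, 24678, 24399 and 24612 with Nrp1-IP and 21604, 21689 and 13938 with Input. The Nrp1-IP and Input libraries were alike in range, and all of them were above all DCC-IP libraries. Mean levels were 613.4 ± 129 CPM for DCC-IP, 2134 ± 250 for Nrp1-IP and 2375 ± 549 for Input (SD, n = 3). ENAH was 3.07-fold higher in Nrp1-IP than in DCC-IP (log2 fold change 1.62, SE 0.33, edgeR adjusted p = 0.0286). The call was lost without Nrp1-IP replicate 1 (log2 fold change 1.75), 2 (1.59) or 3 (1.73), at adjusted p of 0.119, 0.174 and 0.0813. DCC-IP was 3.50-fold below Input (log2 fold change -1.81, SE 0.36, edgeR adjusted p = 0.0274), and this call was kept when Input replicate 3 was left out but lost without any other library, at log2 fold changes of -1.79 to -1.45. Nrp1-IP over Input gave -0.07 (SE 0.25, edgeR adjusted p = 0.916). The other members of the family were sparse, with 0 to 145 counts of EVL and 0 to 41 of VASP, and gave no call.

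Set against cortactin in the same library, ENAH had 0.579, 0.513 and 0.549 counts per CTTN count in Nrp1-IP. The ratio was 0.0747, 0.179 and 0.174 in DCC-IP and 0.151, 0.189 and 0.187 in Input, so Nrp1-IP stood apart from both. This ratio too was chosen after the values were seen, and CTTN was itself lower in both pulldowns than in Input.

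CAPZA1 and CTTN, both well covered, were lower in both pulldowns than in the lysate. CAPZA1, the α1 subunit of the protein that stops growth at barbed ends, had 35442, 32580 and 32814 counts across DCC-IP libraries, 27079, 30966 and 35755 in those of Nrp1-IP, and 134042, 123855 and 100354 in those of Input. No pulldown library reached the lowest Input library. DCC-IP was 4.73-fold below Input (log2 fold change -2.24, SE 0.26, edgeR adjusted p = 0.00513) and Nrp1-IP 5.24-fold below (log2 fold change -2.39, SE 0.23, edgeR adjusted p = 0.00518). Leaving out any of the 3 DCC-IP libraries ended the former call, at log2 fold changes of -2.40 (replicate 1), -1.79 (replicate 2) and -1.72 (replicate 3) and adjusted p of 0.0665 to 0.15. Leaving out any of the 3 Nrp1-IP libraries ended the latter, at -2.35, -2.43 and -2.39 and adjusted p of 0.0648 to 0.0995. Between the receptors the log2 fold change was -0.28 (SE 0.28, edgeR adjusted p = 0.724). The genes of the other capping subunits, CAPZA2 (1 to 81 counts) and CAPZB (27 to 170), gave log2 fold changes of 0.66 or less in size in every comparison, none of them called.

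CTTN encodes cortactin, which binds and steadies Arp2/3 branches. It had 64664, 53149 and 44294 counts in DCC-IP libraries and 42625, 47560 and 44868 in Nrp1-IP libraries, against 143111, 114743 and 74591 in Input libraries. The pulldowns overlapped each other and lay below Input. The log2 fold change over Input was -1.44 in DCC-IP (SE 0.33, edgeR adjusted p = 0.0458) and -1.74 in Nrp1-IP (SE 0.30, edgeR adjusted p = 0.0219). The DCC-IP call was kept when Input replicate 3 was left out, and was lost without DCC-IP replicate 1 (-1.71), 2 (-0.94) or 3 (-0.81) or Input replicate 1 (-1.21) or 2 (-1.49). The Nrp1-IP call was lost without any Nrp1-IP replicate (-1.77, -1.83 and -1.65) or Input replicate 1 (-1.58). The filament cross-linkers of the same set, FLNA, ACTN1 and ACTN4, had at most 26, 14 and 32 counts and were not tested.

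Calponin 3 was far below the lysate in both pulldowns. Its gene CNN3, of the calponin family of actin-binding proteins, had counts of 583, 695 and 797 with DCC-IP, 181, 266 and 177 with Nrp1-IP and 5298, 6481 and 9217 with Input. The 3 groups did not overlap. The means were 58.88 ± 6.10, 18.24 ± 5.72 and 871.5 ± 252 CPM (SD, n = 3). DCC-IP was 13.6-fold below Input (log2 fold change -3.77, SE 0.40, edgeR adjusted p = 0.00513), a call lost without DCC-IP replicate 1 (-3.77, adjusted p = 0.0766) or 2 (-3.43, adjusted p = 0.0975). Nrp1-IP was 45.7-fold below Input (log2 fold change -5.51, SE 0.44, edgeR adjusted p = 0.00227), lost only without Nrp1-IP replicate 1 (-5.46, adjusted p = 0.0589). The difference between the receptors missed the threshold (log2 fold change -1.84, SE 0.52, edgeR adjusted p = 0.0938). It was called in 3 of 8 other settings and in 0 of 6 fits without a library. The settings were DESeq2 (-1.71, adjusted p = 0.0103), all 9 libraries in one fit (-1.69, edgeR adjusted p = 0.0291) and at least 10 counts in every library (-1.63, edgeR adjusted p = 0.0447). Per CAPZA1 count there were 0.0164 to 0.0243 CNN3 counts in DCC-IP, 0.00495 to 0.00859 in Nrp1-IP and 0.0395 to 0.0918 in Input, a ratio chosen after the values were seen, whose denominator was itself lower in both pulldowns.

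Of the tropomyosins, which coat filaments, TPM3 and TPM4 were tested and not called in the main edgeR fit. TPM3 had 631, 743 and 1170 counts across DCC-IP libraries, 353, 498 and 720 in those of Nrp1-IP, and 241, 126 and 252 in those of Input, so its pulldown counts were all above its Input counts. The log2 fold change over Input was 1.59 in DCC-IP (SE 0.59, edgeR adjusted p = 0.152) and 0.81 in Nrp1-IP (SE 0.47, edgeR adjusted p = 0.367). The DCC-IP value was called in 1 of 8 other settings, at least 10 counts in every library (1.86, edgeR adjusted p = 0.0316). TPM4 ranged from 135 to 878 counts, highest in DCC-IP replicate 1. TPM1, too sparse to be tested, had 0, 2 and 1 counts in DCC-IP and 2, 0 and 0 with Nrp1-IP, against 4, 44 and 17 with Input, and TPM2 had at most 1. CNN2, the paralog of CNN3, had 0, 0 and 172 counts in DCC-IP and 1, 17 and 597 in Input, a spread within groups that left nothing to compare.

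ACTB, the β-actin gene, was lowest in Nrp1-IP. It had 7725, 3520 and 28167 counts in DCC-IP libraries and 1022, 1274 and 4027 in Nrp1-IP libraries, against 23675, 25286 and 285358 in Input libraries. Replicate 3 was the highest of its group in all 3 groups, by 3.37 times the mean of the other replicates in DCC-IP, 2.84 times in Nrp1-IP and 11.8 times in Input. In CPM the highest Nrp1-IP library stood at 302 and the lowest Input library at 3020, while DCC-IP ran from 282 to 1950, so that the pulldowns overlapped with each other and not with Input. Nrp1-IP was below Input by a log2 fold change of -6.35 (SE 1.25, edgeR adjusted p = 0.0328), and the call was lost without Nrp1-IP replicate 1 (-6.04), 2 (-6.11) or 3 (-7.04), at adjusted p of 0.103 to 0.19. Leaving out Input replicate 3 brought the value to its smallest, -4.20. DESeq2 gave ACTB no adjusted p in either comparison with Input. DCC-IP was below Input by -3.57 (SE 1.12, edgeR adjusted p = 0.103), which became -1.42 without Input replicate 3. The DCC-IP difference was called in 4 of 8 other settings and in 0 of 6 fits without a library. The paired fit gave -3.03 (edgeR adjusted p = 0.00254) and the fit without the filter -3.54 (edgeR adjusted p = 1.86e-08). With at least 10 counts in every library the value was -3.33 (edgeR adjusted p = 0.0401). With all 9 libraries in one fit it was -3.76 (edgeR adjusted p = 0.0411). Nrp1-IP against DCC-IP gave -2.69 (SE 0.69, edgeR adjusted p = 0.0685). This difference was called in 3 of 8 other settings and in 2 of 6 fits without a library. The settings were no filter (-2.55, edgeR adjusted p = 5.1e-06), DESeq2 (-2.63, adjusted p = 0.00946) and the replicate block (-2.54, edgeR adjusted p = 0.00154).

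ACTG1, the γ-actin gene, which is broadly expressed, was at 0 in 5 of the 9 libraries and reached 595 counts in Input replicate 2. Its coding sequence is close to that of ACTB. Reads that align to more than 1 place are counted by HTSeq on no gene (2.83% to 3.83% of the reads). The levels of both ACTG1 and ACTB are therefore uncertain here. So are those of other genes with near-identical copies, such as MYL12A and MYL12B, CFL1, PFN1 and the thymosins. How many reads each of them lost was not tested. DSTN is a further case, since the row of its pseudogene DSTNP2 held 144 counts in total, against 323 for DSTN.

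Of the formins, which ride on the growing end of unbranched filaments, DIAPH3 was called once. It had counts of 172, 224 and 1635 with DCC-IP, 73, 59 and 111 with Nrp1-IP and 208, 279 and 1014 with Input. All Nrp1-IP libraries were below all others, and replicate 3 was the highest in each group. Nrp1-IP was 8.91-fold below Input (log2 fold change -3.16, SE 0.72, edgeR adjusted p = 0.0494). This call was kept without Input replicate 3 and lost without any other library, at log2 fold changes of -3.56 to -2.99 and adjusted p of 0.0529 to 0.233. It was also lost on library size only (-2.78, adjusted p = 0.0642) and with all 9 libraries in one fit (-3.19, adjusted p = 0.122). DCC-IP over Input gave -0.07 (SE 0.97, edgeR adjusted p = 0.975) and Nrp1-IP was 7.98-fold below DCC-IP without passing the test (SE 0.84 on the log2 scale, edgeR adjusted p = 0.0907). The latter difference was called in 2 of 8 other settings, without the filter (-2.83, edgeR adjusted p = 0.027) and in DESeq2 (-2.92, adjusted p = 0.00657). DIAPH1 had 2, 458 and 311 counts across DCC-IP libraries, 140, 85 and 186 in those of Nrp1-IP, and 0, 20 and 13 in those of Input, so that DCC-IP overlapped Input. Its log2 fold change was 4.08 in DCC-IP over Input (SE 1.83, edgeR adjusted p = 0.236; 4.07 and adjusted p = 0.0478 in the paired fit) and 3.23 in Nrp1-IP over Input (SE 1.09, edgeR adjusted p = 0.135). DIAPH2 had at most 25 counts.

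The WAVE complex relays Rac signals to the Arp2/3 complex, and none of its genes was called in any comparison. At an unadjusted p under 0.05, WASF2, which encodes WAVE2, was higher in Nrp1-IP than in Input (log2 fold change 1.15, SE 0.44, edgeR adjusted p = 0.186) and WASF3 was lower in Nrp1-IP than in DCC-IP (log2 fold change -1.83, SE 0.80, edgeR adjusted p = 0.275). WASF2 had 287, 530 and 78 counts in DCC-IP libraries and 299, 708 and 531 in Nrp1-IP libraries, against 171, 221 and 126 in Input libraries. ABI1, an adaptor of the complex, had 103 to 113 counts in DCC-IP, 107 to 166 in Nrp1-IP and 6 to 48 in Input, with log2 fold changes over Input of 1.29 and 1.58 that did not pass the test (edgeR adjusted p = 0.539 and 0.276). ABI2 and CYFIP1 ranged from 39 to 390 and from 23 to 212 counts. NCKAP1, CYFIP2, WASF1 and WASL, which encodes N-WASP, were sparse, with highest counts of 23, 10, 99 and 105.

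Monomer-binding and severing proteins were thinly covered. TMSB4X, the thymosin that sequesters actin monomers, had counts of 97, 57 and 30 with DCC-IP, 6, 2 and 5 with Nrp1-IP and 5, 10 and 22 with Input. The DCC-IP counts were above all others, and Nrp1-IP over DCC-IP gave a log2 fold change of -4.05 (SE 1.26, edgeR adjusted p = 0.129). This difference was called in 1 of 7 other settings, DESeq2 (-3.97, adjusted p = 0.00591). TMSB10 had its highest counts in Input, with 1, 3 and 6 counts across DCC-IP libraries, 0, 0 and 5 in those of Nrp1-IP, and 48, 14 and 59 in those of Input, and log2 fold changes over Input of -4.02 (edgeR adjusted p = 0.137) and -5.13 (edgeR adjusted p = 0.0921). The former was called in 1 of 7 other settings, DESeq2 (-4.29, adjusted p = 0.00811), and the latter in 3 of 7. The profilin gene PFN1 reached 210 counts in Input replicate 2 and at most 22 elsewhere, and PFN2 ranged from 0 to 375. Among the severing proteins CFL1 was at 0 in 4 libraries and reached 119 counts, CFL2 reached 51 and DSTN 82. None was called in the main edgeR fit, and DSTN was called lower in Nrp1-IP than in Input in 1 of 8 other settings. LIMK1 and LIMK2, the kinases that switch cofilins off, had at most 100 and 87 counts. Of the 5 myosin II genes MYH9, MYH10 and MYL6 were tested at least once without a call, and the highest count of any of the 5 was 84.

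A wider list of 106 other actin-related genes gave between 0 and 3 calls in each direction of each comparison. Between the receptors 50 were tested, with 0 called higher (3 at an unadjusted p under 0.05, by edgeR) and 2 lower: DAAM1, a formin (log2 fold change -2.91, SE 0.54, edgeR adjusted p = 0.0184), and SPTBN1, the membrane skeleton protein β-spectrin (-4.89, SE 1.06, edgeR adjusted p = 0.0386). SPTBN1 had 2944, 1626 and 39035 counts in DCC-IP and 310, 263 and 822 in Nrp1-IP, so its groups were apart although 1 library carried most of the reads. Of the 43 genes tested against Input in each pulldown, DCC-IP had 1 higher and 1 lower and Nrp1-IP 1 higher and 3 lower. CDC42, whose protein activates N-WASP, was lower in both, with 1658, 3522 and 5181 counts in DCC-IP libraries and 5647, 4502 and 6736 in Nrp1-IP libraries, against 27982, 29440 and 22981 in Input libraries. Its log2 fold changes were -3.41 (SE 0.42, edgeR adjusted p = 0.00585) and -2.71 (SE 0.25, edgeR adjusted p = 0.00388). The gene called higher was MYO19, a mitochondrial myosin, in DCC-IP (3.34, edgeR adjusted p = 0.0327) and FHOD3, a formin, in Nrp1-IP (2.52, edgeR adjusted p = 0.0173). MARCKS, a membrane-bound filament binder (-3.09, edgeR adjusted p = 0.019), and RDX, the membrane linker radixin (-3.45, edgeR adjusted p = 0.0142), were lower in Nrp1-IP than in Input. Called genes were thus 0% higher and 4.00% lower of those tested between the receptors (2.56% and 1.09% of all genes), 2.33% in each direction in DCC-IP over Input (1.46% and 3.52% of all genes), and 2.33% and 6.98% in Nrp1-IP over Input (1.94% and 3.03% of all genes). The medians of this list were -0.57 between the receptors, 0.52 in DCC-IP over Input and 0.07 in Nrp1-IP over Input. The calls against Input leaned on single libraries here too. Over all genes 0 calls were left in DCC-IP over Input without DCC-IP replicate 1, and 0 in Nrp1-IP over Input without Nrp1-IP replicate 1. Those of CDC42, MYO19, FHOD3, MARCKS and RDX were thus lost there. The FHOD3 call was also lost without Nrp1-IP replicate 2 or 3. For DAAM1 and SPTBN1 the fits without single libraries are not given here.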

How the data were processed

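Per the labels and the submitters' processing notes, the authors used HISAT2 2.1.0 for alignment to hg19 and HTSeq 0.11.0 for counting reads per gene. They deposited raw counts, 1 value per gene symbol in each of the 9 libraries. The annotation and strand setting are not given in the sources used here. Before sequencing, the cDNA had been amplified by PCR from small amounts of RNA. The 5 HTSeq summary rows, led by reads on no feature (48.7% to 55.8%), stayed out of library sizes.

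Samples were grouped by pulldown as labelled, with 3 libraries a group and 6 in each comparison. Counts were tested in edgeR 4.0.16 (R 4.3.3) with filterByExpr (minimum count 10), TMM, glmQLFit and glmQLFTest, separately for each comparison. The standard error is the log2 fold change over the square root of F. CPM are on TMM-scaled sizes of all 9 libraries. Replicates of a group differed beyond sampling noise. Same-numbered libraries correlated by 0.117, 0.187 and 0.421 between DCC-IP and Input (deviations from group means, 7628 genes) and were taken as paired there, from the data and not the labels. All values, those without single libraries included, are from the fit without the block unless named as paired. The paired value is given where it changed a call and for the members called in DCC-IP over Input. The other 2 comparisons had a pair under 0.1.

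The members and lists were chosen with earlier results of these data known. Named genes are the members called in a comparison, those with at least 1000 counts in every library, up to 3 a role by lowest p, and called genes of the wider list. DESeq2 1.42.0, other scalings and filters, a joint fit, a fit without MAP1B and each library left out were alternatives. Names and overlaps came from RefSeq genes of GRCh38.p14, where all 53 matched. Protein sequences were not analysed here. The steps were checked on simulated data. At the estimated dispersions DESeq2 made more wrong calls than edgeR there, and also found more of the changed genes. In those data edgeR missed most of the changed genes, so a gene that was not called may still differ.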

Additional observations from a re-analysis of the deposited data

Results flagged for a closer look

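In the direct test of Nrp1-IP against DCC-IP, which held no Input library, 2 genes differed between the receptors. ARPC4 was higher in Nrp1-IP than in DCC-IP by a log2 fold change of 2.51 (edgeR adjusted p = 0.00255). All 3 Nrp1-IP libraries were above all 3 DCC-IP libraries. For ENAH the difference was 1.62 (edgeR adjusted p = 0.0286), again with all 3 Nrp1-IP libraries above all 3 DCC-IP libraries, and it was not called without any 1 of the Nrp1-IP libraries. MAP1B took 40.3% to 52.1% of the DCC-IP counts, and with MAP1B left out both differences were still called, while the ENAH call in DCC-IP over Input was lost (edgeR adjusted p = 0.0735).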

How the results depend on the processing

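Of the fold changes of named genes under each alternative, 407 kept direction and side of the threshold, 37 gained a call, 54 lost one and 10 changed sign, and the causes were not tested. These include fold changes that were not called in the main edgeR fit and so had no call to lose. The 54 losses could fall only on the called ones, so the 407 do not show how steady the calls were. DESeq2 gave no adjusted p for ACTB over Input in either pulldown, and these were not counted. Nrp1-IP over DCC-IP: genes called higher were 1 to 2 without single libraries. Genes called lower were 2 without the filter, 2 with at least 10 counts in every library, 5 in DESeq2, 1 with all 9 libraries in one fit, 2 with the replicate block and 0 to 1 without single libraries. CAPZA1 stood at 0.02 with MAP1B left out and at -0.31 to 0.17 without single libraries, and CTTN at -0.53 to 0.12.

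DCC-IP over Input: genes called higher were 0 with RLE, 0 without the filter, 0 with MAP1B left out, 3 with at least 10 counts in every library, 2 in DESeq2, 2 with the replicate block and 0 without any single library. Genes called lower were 2 with MAP1B left out and 0 to 5 without single libraries. DIAPH3 was 0.26 on library size only, 0.17 with at least 10 counts in every library and -1.36 to 0.93 without single libraries.

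Nrp1-IP over Input: genes called higher were 1 without the filter and 1 in DESeq2. Genes called lower were 12 without the filter, 8 in DESeq2 and 0 to 6 without single libraries. ENAH was 0.33 on library size only and -0.40 to 0.03 without single libraries.

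The scaling shifted the median of all genes by over 0.1: from -0.27 to -0.10 on library size only between the receptors, from 0.16 to 0.48 for DCC-IP and from 0.06 to 0.44 for Nrp1-IP over Input. Same-numbered libraries of Nrp1-IP and DCC-IP correlated by 0.0989, 0.113 and 0.361, and those of Nrp1-IP and Input by 0.215, -0.0043 and 0.364, so their numbers were not taken to pair them. The replicate block there added calls of ACTB and ARPC2 between the receptors and of TMSB10 over Input, and in DCC-IP over Input those of ACTB and DIAPH1. It changed no other member's call. The spread between libraries of a group was large, with edgeR's common biological coefficient of variation at 0.928 between the receptors, 1.02 for DCC-IP and Input and 0.761 for Nrp1-IP and Input, and this limits what 3 libraries a group can show for a single gene.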

Other observations

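The replicates carrying the same number shared some highs across the groups. Of the 45 actin cytoskeleton genes with a count in at least 5 libraries, 9 (20.0%) were highest in replicate 3 in all 3 groups, against 12.3% of all 9457 such genes. These were ACTB, WASL, WASF3, DIAPH3, PFN2, TMSB10, TPM3, CNN2 and FLNA. The floor was not applied to these highs, so some rest on few counts. FLNA had 0, 0 and 1 counts in DCC-IP, and TMSB10 had 0, 0 and 5 in Nrp1-IP. The TPM3 high in Input was narrow (31.7 against 31.1 CPM). Replicate 2 was the highest in all groups for 4 genes (8.89%, against 4.61% of all), namely WASF2, EVL, CAPZB and MYH9, and replicate 1 for 0 genes (0%, against 4.75%). MYH9 had only 0, 4 and 1 counts in Nrp1-IP. The labels do not say what a replicate number stands for. For DIAPH3 replicate 3 was 6.05 times the mean of the others in DCC-IP, 1.36 times in Nrp1-IP and 4.24 times in Input, and for WASF3 3.10, 2.03 and 4.18 times.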
